A study of Mus musculus with 9 samples.

Results

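Kupffer cells are the resident macrophages of the liver, and 10 genes that mark them were followed here through livers lacking nuclear receptor corepressors. The genes were given by name, and a gene was kept where the array had a probe set annotated with its symbol alone. All 10 were measured, out of 22180 genes with such a probe set, and each had 1 probe set. No member passed the test in any comparison, where 0.00451% to 1.19% of all genes did. In SMRT KO livers all 10 had means slightly above control, by 1.1-fold for Marco to 1.28-fold for Adgre1, while in double KO livers the members were spread around the control level. Of 16 other genes of resident Kupffer cells, 1, Fcna, fell in double KO against control livers, where 0.32% of all genes fell. Of the same 16, 7 had double KO means above control.

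The series measured liver RNA on Affymetrix arrays that cover whole transcripts, with an array for each mouse. There were 3 double KO mice, with a liver-specific knockout of SMRT and NCoR, 3 SMRT KO mice, with a liver-specific knockout of SMRT, and 3 control mice, which were fl/fl for both corepressor genes. All 9 were euthyroid females of a mixed 129SV/B6 background, aged 7 to 9 weeks and on standard chow. The labels do not name the Cre driver, and they do not say whether Kupffer cells, as opposed to other liver cells, carry the deletion. The state of the NCoR gene in SMRT KO mice is not given either, and the targeted genes were not analysed here. No group lacking NCoR alone was analysed here. Values are log2 expression values, on which a step of 1 is a doubling in brightness, and they compare arrays for a single gene, not genes with each other.

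Kupffer cells sit inside the liver sinusoids, where they take up microbes, debris, aged red cells and complement-coated particles from portal blood. They are kept alive by signals through the receptor Csf1r and acquire a liver-specific set of receptors. NCoR and SMRT are corepressors that nuclear receptors use to hold target genes at a low level, in macrophages as well as in hepatocytes.

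Hepatocyte markers identified the tissue, with albumin (Alb) at a mean log2 value of 13.94 over the 9 arrays. The members also stood above most background genes of the arrays, Marco least clearly. The lowest of them, Marco, had a mean of 6.45, above 97.4% of 1373 olfactory and vomeronasal receptor genes. Those genes are little used in liver and had a median of 3.84. Over all genes the median was 6.37, close to the level of Marco. Arrays correlated at 0.987 to 0.992 within groups and at 0.983 to 0.989 between groups. In a bulk sample, fewer Kupffer cells and less RNA of these genes per cell cannot be told apart.

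The 3 chains of the complement protein C1q are encoded side by side on chromosome 4, in the order C1qb, C1qc and C1qa with no other gene between them in the RefSeq table. RefSeq promoters (GRCm38.p6, 250 bases before to 50 after the start that the promoter table uses) were found for 7 of the 10 members. Adgre1, C1qa and Csf1r had no entry. The promoters were searched on both strands for AGGAAGT, a form of the binding motif of PU.1, a transcription factor of macrophages, and for TGCTGAC, a half-site of MAF proteins. Matches can overlap, since the reverse complement of the MAF letters begins with the last bases of the PU.1 letters. The motif AGGAAGT occurred in 2 of the 7, C1qb and C1qc, and in 9.35% of all 32851 promoters in the table. TGCTGAC occurred in 0 of the 7 and in 4.67% of all. The sequences shown are the promoters of the 2 neighbouring C1q genes that hold a match, in capitals as its reverse complement, and that of Cd5l, the member with the smallest unadjusted p in SMRT KO livers, which held neither motif.
C1qb, chr4:136886151-136886450, minus strand: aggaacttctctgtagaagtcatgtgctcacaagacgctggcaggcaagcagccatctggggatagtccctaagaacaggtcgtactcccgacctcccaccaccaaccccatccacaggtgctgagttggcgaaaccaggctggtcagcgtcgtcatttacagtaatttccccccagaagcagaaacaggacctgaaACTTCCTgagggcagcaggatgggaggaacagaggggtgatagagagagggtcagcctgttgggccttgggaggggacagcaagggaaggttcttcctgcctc
C1qc, chr4:136892865-136893164, minus strand: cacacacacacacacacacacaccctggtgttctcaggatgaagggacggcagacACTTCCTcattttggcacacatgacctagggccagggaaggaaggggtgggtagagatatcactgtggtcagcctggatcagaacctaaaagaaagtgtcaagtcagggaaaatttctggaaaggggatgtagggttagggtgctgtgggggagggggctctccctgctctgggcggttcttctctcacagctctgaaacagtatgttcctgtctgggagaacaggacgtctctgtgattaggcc
Cd5l, chr3:87357631-87357930, plus strand: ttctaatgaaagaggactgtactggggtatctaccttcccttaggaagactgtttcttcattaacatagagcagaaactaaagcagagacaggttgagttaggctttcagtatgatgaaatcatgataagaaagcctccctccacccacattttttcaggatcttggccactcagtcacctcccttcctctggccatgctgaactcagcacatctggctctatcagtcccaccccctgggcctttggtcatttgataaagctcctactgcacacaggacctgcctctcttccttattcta
Between the match and the start used by the promoter table lie 46 bases in C1qb and 188 bases in C1qc. In C1qc that start lies 22 bases inside the gene as the RefSeq gene table gives it, and 166 bases lie between the match and the gene's outer end.

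Among the surface receptors, Adgre1, which encodes the F4/80 antigen by which mouse macrophages are recognised, had log2 values of 8.04, 8.34 and 8.17 in double KO livers, 8.33, 8.71 and 8.96 in SMRT KO livers, and 8.34, 8.27 and 8.33 in control livers. SMRT KO replicates 2 and 3 stood above every other liver, and SMRT KO replicate 1 lay among the controls. Its log2 fold change was 0.35 in SMRT KO against control livers (standard error 0.143, 95% interval 0.03 to 0.67, adjusted p = 0.826 by limma). It was 0.20 without SMRT KO replicate 3 and 0.52 without SMRT KO replicate 1. In double KO against SMRT KO livers it was -0.48 (standard error 0.143, adjusted p = 0.213 by limma).

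Vsig4, a receptor that binds complement C3 fragments on blood-borne particles, had 9.79, 10.11 and 9.84 in double KO livers, 10.25, 10.48 and 10.27 in SMRT KO livers, and 10.18, 9.82 and 10.12 in control livers. All 3 SMRT KO values exceeded the 6 others. The log2 fold change was 0.29 in SMRT KO against control livers (95% interval 0.02 to 0.56) and -0.42 in double KO against SMRT KO livers (95% interval -0.69 to -0.15), with adjusted p-values of 0.826 and 0.194 by limma.

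Clec4f, a C-type lectin that in mouse liver is largely restricted to Kupffer cells, had 9.00, 9.10 and 8.88 in double KO livers, 9.21, 9.12 and 9.22 in SMRT KO livers, and 9.30, 8.77 and 8.92 in control livers. The controls spanned the values of both knockouts, and control replicate 1 was the highest of the 9 livers. The double KO mean and the control mean were both 8.99, with a 95% interval of the log2 difference of -0.28 to 0.28. Marco, a scavenger receptor for bacteria and modified lipoproteins, had 6.47, 6.22 and 6.44 in double KO livers, 6.37, 6.75 and 6.57 in SMRT KO livers, and 6.57, 6.30 and 6.40 in control livers. The 3 groups overlapped throughout, and the 95% interval of the log2 difference from control was -0.12 to 0.40 for SMRT KO.

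Among the secreted products, the 3 chains of C1q, which starts the classical complement pathway, were low in different livers but shared their highest one. C1qa had 7.63, 7.94 and 7.69 in double KO livers, 7.94, 8.14 and 8.30 in SMRT KO livers, and 8.03, 7.91 and 7.79 in control livers. C1qb had 9.36, 9.69 and 9.25 in double KO livers, 9.58, 9.74 and 9.93 in SMRT KO livers, and 9.42, 9.39 and 9.45 in control livers. C1qc had 7.37, 7.40 and 7.12 in double KO livers, 7.37, 7.47 and 7.74 in SMRT KO livers, and 7.38, 7.10 and 7.20 in control livers. SMRT KO replicate 3 was the highest liver for all 3 chains, and double KO replicate 2 was the highest of the double KO livers for each. The SMRT KO values lay wholly above control for C1qb and overlapped control for the other chains. The log2 fold changes in SMRT KO against control livers were 0.22, 0.33 and 0.30 for C1qa, C1qb and C1qc, and those in double KO against control livers were -0.15, 0.02 and 0.07. None of these passed, with adjusted p of 0.793 to 0.865 for C1qb, C1qc and C1qa in SMRT KO livers by limma.

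Cd5l, a secreted scavenger receptor family protein that protects macrophages from apoptosis, had 9.64, 9.67 and 9.47 in double KO livers, 9.61, 9.78 and 9.79 in SMRT KO livers, and 9.42, 9.38 and 9.39 in control livers. Every knockout liver of either kind lay above every control liver, and the controls were close together, at 9.40 ± 0.0175 (SD, n = 3). Cd5l was 1.26-fold higher in the SMRT KO mean (95% interval 1.12 to 1.41, adjusted p = 0.436 by limma) and 1.15-fold higher in the double KO mean (1.02 to 1.29, adjusted p = 0.376 by limma). It was the only member whose double KO values did not overlap control, where 7.73% of all genes lay wholly above control and 7.25% wholly below.

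Cd68, a lysosomal membrane glycoprotein of macrophages, had 8.20, 8.34 and 8.25 in double KO livers, 8.37, 8.36 and 8.38 in SMRT KO livers, and 8.35, 8.23 and 8.09 in control livers. The SMRT KO livers were almost equal (SD 0.00697) and lay just above all others, by 0.15 on the log2 scale over the control mean (95% interval -0.02 to 0.32). Csf1r, the receptor for the growth factors Csf1 and Il34, had 8.89, 8.93 and 8.76 in double KO livers, 8.92, 8.94 and 9.37 in SMRT KO livers, and 9.13, 8.64 and 8.75 in control livers. Its SMRT KO mean of 9.08 rested on replicate 3, and control replicate 1 exceeded the other SMRT KO livers.

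**Figure D1:**
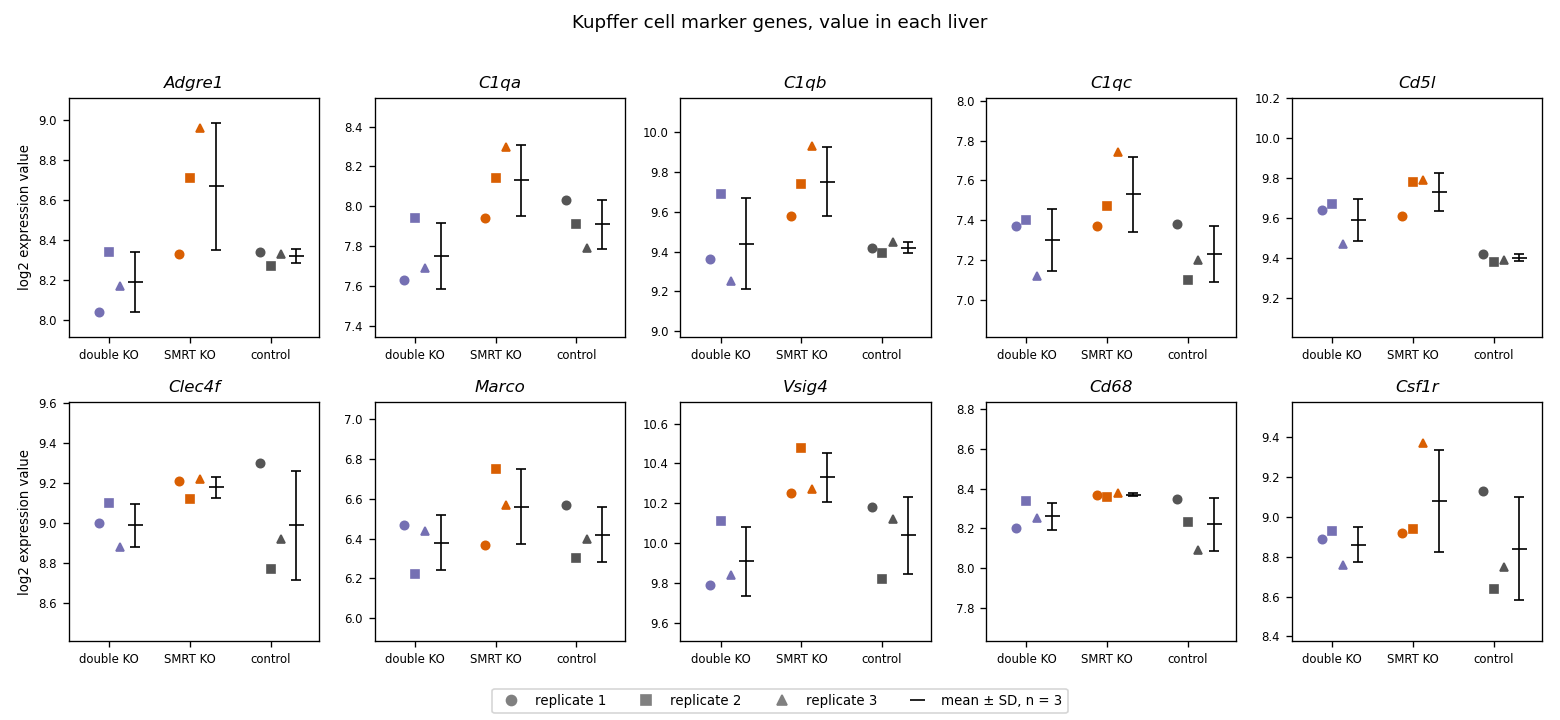
Log2 expression value (vertical axis) of the 10 Kupffer cell markers in each liver, with double KO, SMRT KO and control livers from left to right, a symbol for each replicate and the mean ± SD of 3 mice beside them. SMRT KO replicate 3 is the highest liver for 7 of the 10 genes, and the double KO and control livers share the same range for most of them.

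Set against control, SMRT KO livers had all 10 members above 0 (median log2 fold change 0.27), where 50.4% of all genes were above 0 and their median was 0.001. By limma 0 of 10 passed an adjusted p of 0.05, where 1 of 22180 genes did (0.00451%). At an unadjusted p under 0.05 there were 5 members, Adgre1, C1qb, C1qc, Cd5l and Vsig4, all higher, where 2.66% of all genes were higher and 3.34% lower at that level. Limma with an intensity trend and limma with array weights also called 0 members. In 4 members, C1qb, Cd5l, Vsig4 and Cd68, the SMRT KO values lay wholly above control, and in 0 wholly below, where 3.8% of all genes lay above and 4.36% below. The highest upper bound of any 95% interval was 1.6-fold, for Adgre1. The smallest unadjusted p was 0.00165, for Cd5l. The median was 0.18 without SMRT KO replicate 3 and 0.34 without control replicate 1. All 10 members stayed above 0 in each fit that left out a SMRT KO or control mouse. Leaving out a double KO mouse cannot change these differences.

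The members varied together between mice of the same group, so they are not 10 separate observations. SMRT KO replicate 3 had the highest value of its group for 8 members and SMRT KO replicate 1 the lowest for 8. Control replicate 1 was the highest control for 9 and control replicate 2 the lowest for 8. Among double KO livers, replicate 2 was the highest for 9. The mean log2 value over the members was 8.44, 8.57 and 8.39 in double KO livers, 8.60, 8.75 and 8.85 in SMRT KO livers, and 8.61, 8.38 and 8.44 in control livers. Control replicate 1 thus stood at the level of SMRT KO replicate 1, and the SMRT KO and control groups overlapped on this mean. Over the 9 arrays the 45 pairs of members had a median Pearson correlation of 0.64, with the lowest, 0.29, for C1qb and Marco and the highest, 0.93, for Adgre1 and C1qa. With each group's mean removed the median was 0.46, and 44 of the 45 stayed above 0. Neighbouring C1qb and C1qc correlated at 0.86, and C1qc and Csf1r, on different chromosomes, at 0.92. These are descriptions of 9 shared arrays. The median SD of the members between mice was 0.143 in double KO, 0.174 in SMRT KO and 0.135 in control livers, each above that of all genes (0.0898, 0.106 and 0.0986).

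Set against control, double KO livers had 5 of 10 members above 0 and a median log2 fold change of 0.008, where 51.3% of all genes were above 0 and their median was 0.004. By limma 0 of 10 passed, where 0.843% of all genes did (0.523% higher and 0.32% lower), and at an unadjusted p under 0.05 there was 1 member, Cd5l, which was higher (5.34% of all genes were higher and 5.43% lower). The 95% intervals of the 10 members ran from 0.731-fold, for Adgre1, to 1.29-fold, for Cd5l. The count above 0 was 3 without control replicate 3 and 7 without control replicate 1.

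Set against SMRT KO, double KO livers had 0 of 10 members above 0, where 50.6% of all genes were, and their median log2 fold change was -0.23. By limma 0 of 10 passed, where 1.19% of all genes did (0.748% higher and 0.437% lower), with the smallest adjusted p, 0.194, for Vsig4. At an unadjusted p under 0.05 there were 4 members, Adgre1, C1qa, C1qb and Vsig4, all lower, where 4.81% of all genes were lower and 5.66% higher at that level. The double KO values lay wholly below SMRT KO for Clec4f, Vsig4 and Cd68, as did those of 6.21% of all genes, and for 0 members wholly above, as for 7.54% of all genes. This comparison uses the same SMRT KO livers as the first, so the 2 sets of values are not separate evidence.

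**Figure D2:**
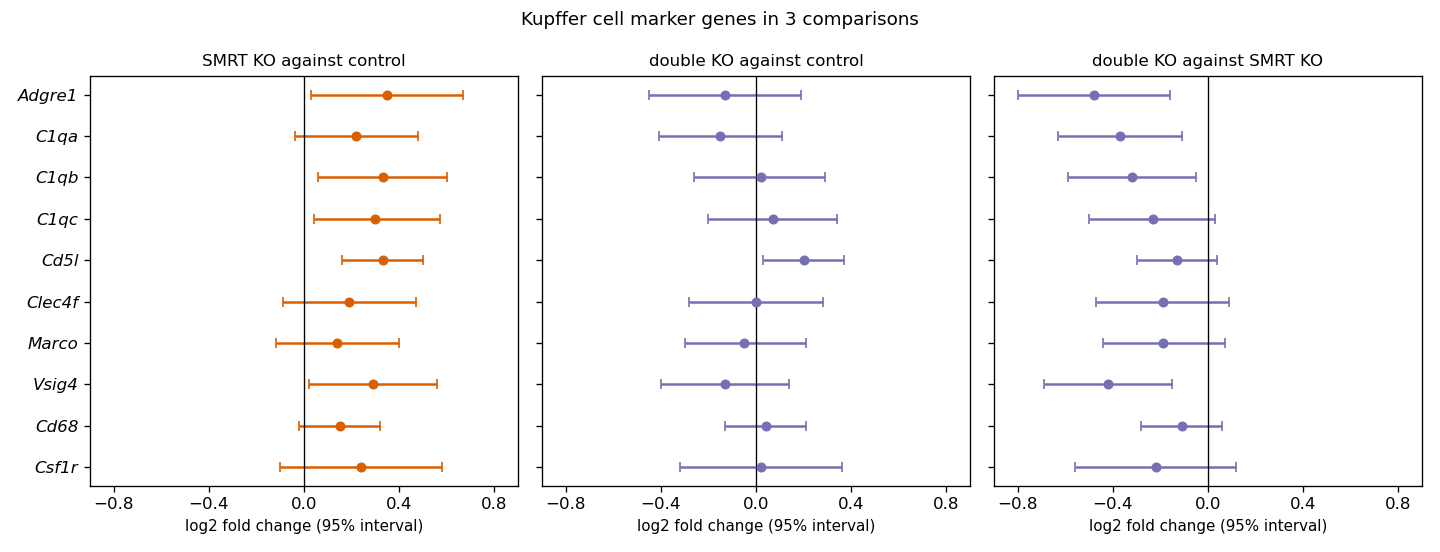
Log2 fold change of each Kupffer cell marker (horizontal axis) with its 95% interval from limma, in 3 panels: SMRT KO over control, double KO over control, and double KO over SMRT KO. All 10 points lie right of 0 in the first panel and left of it in the third, 5 and 4 of their intervals leave out 0, and none passed after adjustment over all genes.

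Other genes of resident Kupffer cells included the only genes on any list here that passed. Of 16 such genes outside the members, 1 fell, 0 rose and 15 did not pass in double KO against control livers (0.32% of all genes fell), with a median log2 fold change of -0.07. Against SMRT KO livers 2 fell and 0 rose (0.437% of all genes fell), with a median of -0.20. In SMRT KO against control livers 0 of 16 passed by limma, where 0.00451% of all genes did. There 14 were above 0, as were 50.4% of all genes, and the median was 0.10. At an unadjusted p under 0.05 there were 4 higher and 1 lower (2.66% and 3.34% of all genes). Double KO against control livers gave 0 higher and 4 lower at that level (5.34% and 5.43% of all genes). Double KO against SMRT KO livers gave 1 higher and 9 lower (5.66% and 4.81% of all genes), with 15 of 16 below 0. The list includes genes that other liver cells also express, among them Cdh5, Id1, Id3, Nr1h3, C6, Hpgd and Slc40a1.

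The gene that fell against control was Fcna, which encodes ficolin A, a secreted lectin of the complement lectin pathway made by mouse macrophages. It had 7.87, 7.88 and 8.03 in double KO livers, 8.55, 8.62 and 8.55 in SMRT KO livers, and 8.91, 8.63 and 8.84 in control livers. The groups formed 3 steps with no overlap. In double KO livers Fcna was 1.83-fold lower than in control (log2 fold change -0.87, standard error 0.0845, adjusted p = 0.00303 by limma) and 1.56-fold lower than in SMRT KO livers (-0.65, standard error 0.0845, adjusted p = 0.00783 by limma). The SMRT KO difference from control, -0.23, did not pass (adjusted p = 0.807 by limma), and it ran opposite to the members. Both falls held under all 17 alternatives, run for this gene after its values were seen, with adjusted p from 0.00104 to 0.0215 against control and from 0.00389 to 0.0482 against SMRT KO.

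Clec1b, which encodes the podoplanin receptor CLEC-2 found on Kupffer cells and platelets, had 7.64, 7.89 and 7.51 in double KO livers, 8.93, 8.27 and 8.89 in SMRT KO livers, and 8.62, 8.21 and 8.55 in control livers. Each double KO value was below the 6 others. Clec1b was 2.02-fold lower in double KO than in SMRT KO livers (log2 fold change -1.02, standard error 0.185, adjusted p = 0.0366 by limma), and its difference from control, -0.78, did not pass (adjusted p = 0.122 by limma). The call against SMRT KO was lost under 9 of 17 alternatives, with adjusted p from 0.0132 to 0.143 by limma: a fit of only the 2 groups, the replicate block, and the fits without SMRT KO replicate 1 or 3, control replicate 1 or 3, or any of the double KO replicates. The difference from control passed without SMRT KO replicate 2 (adjusted p = 0.0456 by limma).

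In double KO against control livers, 7 of the 16 genes lay wholly below control, where 7.25% of all genes did. Besides Fcna and Clec1b these were Timd4, Folr2, Cd163, Nr1h3 and Hpgd, which did not pass and were picked out after their values were seen. Wholly above control was 1 of the 16, the transcription factor gene Spic (0.17, adjusted p = 0.62), where 7.73% of all genes were. Cd163, the scavenger receptor for haemoglobin bound to haptoglobin, averaged 7.07 ± 0.126 in double KO livers, 7.65 ± 0.359 in SMRT KO livers and 7.55 ± 0.109 in control livers (SD, n = 3 each), a log2 fold change of -0.48 from control (adjusted p = 0.275 by limma). Timd4, a receptor for phosphatidylserine on dying cells, had -0.17 (adjusted p = 0.561) and Folr2, a folate receptor of tissue macrophages, -0.24 (adjusted p = 0.468). The gene of this list with the highest mean, Hpgd, which inactivates prostaglandins, had -0.38 from control (adjusted p = 0.134) and -0.46 from SMRT KO (adjusted p = 0.0542). The Hpgd difference from SMRT KO passed under 4 alternatives, with adjusted p of 0.0278 when dim genes were left out, 0.0393 with array weights, 0.0418 with an intensity trend and 0.0486 without SMRT KO replicate 3. The ferroportin gene Slc40a1, an iron exporter, had 0.18 from control (adjusted p = 0.619) and Cdh5, a cadherin best known from endothelium, 0.03 (adjusted p = 0.952). Both were picked out for their high mean, after their values were seen.

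**Figure D3:**
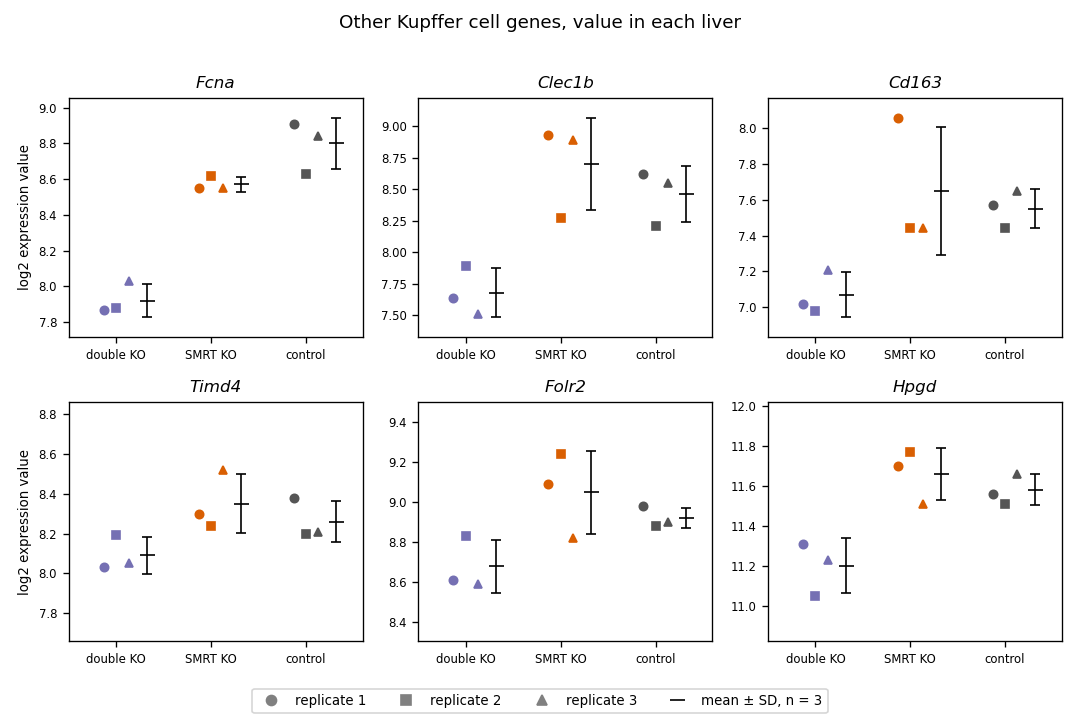
Log2 expression value (vertical axis) of 6 further Kupffer cell genes in each liver, with double KO, SMRT KO and control livers from left to right and the mean ± SD of 3 mice beside them. The 6 were picked from a list of 16 and all had double KO means below control, while 7 of the 16 had means above it. Fcna and Clec1b are lowest in the 3 double KO livers, Fcna passed against both other groups, Clec1b against SMRT KO, and Cd163, Timd4, Folr2 and Hpgd did not pass.

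Genes shared by macrophages and other myeloid cells also lay mostly above 0 in SMRT KO livers. Of 25 measured genes 0 passed by limma in any comparison, where 0.00451% to 1.19% of all genes did. In SMRT KO against control livers 23 were above 0, the median log2 fold change was 0.15 and 7 were higher at an unadjusted p under 0.05, where 50.4% of all genes were above 0 and 2.66% higher at that level. In double KO against control livers 19 were above 0, with a median of 0.05 and 2 higher at that level (51.3% and 5.34% of all genes). In double KO against SMRT KO livers 2 were above 0, with a median of -0.13 and 6 lower at that level (50.6% and 4.81% of all genes). The 3 with the highest means were Ctsc, a protease that activates granule enzymes (0.22 in double KO and 0.11 in SMRT KO against control), Mertk, a receptor for the clearance of dying cells (-0.27 and -0.03), and the lysosomal protease Lgmn (0.03 and 0.12).

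The genes with values most like the members' were ranked over all mice. Likeness was the Pearson correlation, over the 9 arrays, with the mean of the members after each was centred, among non-members above the median level of all genes. The first 8 were Cybb, a subunit of the phagocyte oxidase (0.973), Igsf6 (0.967), Dock10 (0.958), Tyrobp, a signalling adaptor of myeloid receptors (0.958), the C-type lectin Clec4a3 (0.955), the interferon-induced GTPase Gbp9 (0.952), Fcer1g, the signal chain shared by Fc receptors (0.948), and Fyb, an adaptor of blood cells (0.946). Cybb, for example, had 8.90, 9.30 and 9.01 in double KO livers, 9.31, 9.48 and 9.65 in SMRT KO livers, and 9.25, 8.93 and 9.01 in control livers. As with the members, SMRT KO replicate 3 was its highest liver and control replicate 1 its highest control. These genes were chosen for their likeness, so the values describe them without a test. After each group's mean was removed, a choice added after seeing the data, the correlations of the same 8 were 0.881 to 0.941, and 1 of them, Fyb, was again among the first 8. The other 7 of that second ranking were Zfyve9, Hamp2, Rgs10, Atg7, Olfr1348, Nisch and Bud13, so which genes come first depends on whether the group means are kept.

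Genes of recruited cells and of macrophage activation gave no call. By limma 0.00451% of all genes passed in SMRT KO against control, 0.843% in double KO against control and 1.19% in double KO against SMRT KO livers. At those shares the lack of calls in lists this short says little. Of 12 monocyte, recruited and lipid-associated macrophage genes 0 passed by limma in any comparison, with medians of 0.03 in double KO and 0.05 in SMRT KO against control. At an unadjusted p under 0.05 there were 4 higher in double KO and 2 higher in SMRT KO livers (5.34% and 2.66% of all genes). Fabp5, a fatty acid binding protein that hepatocytes can also make, had 10.33, 10.61 and 10.54 in double KO livers, 9.62, 8.54 and 8.36 in SMRT KO livers, and 7.99, 9.80 and 8.80 in control livers. All 3 double KO livers exceeded the 6 others, which ranged widely, and the log2 fold change of 1.63 from control did not pass (adjusted p = 0.179 by limma). Itgal, an integrin of leukocytes, had 0.02 in double KO and 0.30 in SMRT KO against control, and Ly6c2, which marks inflammatory monocytes in mice, 0.29 and 0.03. The chemokine receptor gene Ccr2 of monocytes had 0.02 in double KO and -0.03 in SMRT KO against control. Trem2 had 0.23 in double KO (adjusted p = 0.144 by limma) and 0.17 in SMRT KO livers (adjusted p = 0.775 by limma). Its values lay wholly above control in both knockouts. That held for 3 of the 12 genes in double KO and 1 in SMRT KO livers, where 7.73% and 3.8% of all genes did. Of 14 inflammatory products 0 passed by limma, with medians of 0.04 in double KO and 0.02 in SMRT KO against control. At an unadjusted p under 0.05, 1 was higher in double KO and 3 in SMRT KO livers (5.34% and 2.66% of all genes). The chemokine genes Ccl5, Ccl2 and Ccl4 had 0.01, 0.04 and 0.26 in double KO and 0.36, -0.06 and 0.22 in SMRT KO against control. Il6 had a mean of 3.25, below the median of the olfactory and vomeronasal receptor genes. The group means of the inflammatory list, 5.84 in double KO, 5.90 in SMRT KO and 5.79 in control livers, lay below the 95th percentile of those genes, 5.96. Trem2, Ccr2 and Il6 were picked out after their values were seen.

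Among 10 ligands that act on macrophages 0 passed by limma in any comparison, where 0.00451% to 1.19% of all genes did. At an unadjusted p under 0.05, 1 was higher in double KO and 2 in SMRT KO livers (5.34% and 2.66% of all genes). Gas6, which bridges dying cells to Mertk and Axl, averaged 9.51 ± 0.363 in double KO livers, 9.70 ± 0.288 in SMRT KO livers and 8.96 ± 0.0634 in control livers (SD, n = 3 each). Every knockout liver exceeded every control. Its log2 fold change was 0.55 in double KO (95% interval 0.14 to 0.97, adjusted p = 0.285 by limma) and 0.74 in SMRT KO livers (0.33 to 1.16, adjusted p = 0.505 by limma). Pros1, another ligand of Mertk, had -0.27 in double KO and -0.21 in SMRT KO against control, and Tgfb1, a growth factor that shapes tissue macrophages, 0.08 and 0.03. Csf1 and Il34, the ligands of Csf1r picked out for that reason, had 0.14 and -0.06 in double KO and 0.15 and 0.01 in SMRT KO against control. Of 8 classical complement partners, made largely by hepatocytes, 0 passed by limma, at the same shares over all genes. Their median was -0.20 in double KO and 0.001 in SMRT KO against control. At an unadjusted p under 0.05 there were 5 lower and 1 higher in double KO livers and 0 in SMRT KO livers. Of all genes, 5.43% were lower and 5.34% higher in double KO livers, and 3.34% lower and 2.66% higher in SMRT KO livers. The C1 inhibitor gene Serping1 had -0.21 in double KO against control livers, C4bp, whose product binds C4b, had -0.20, and the complement component gene C4b had -0.02.

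Markers of other cells were read beside these values, and 0 of them passed by limma in any comparison, where 0.00451% to 1.19% of all genes did. In SMRT KO livers an unadjusted p under 0.05 against control was found for 6 cell cycle genes, 2 of endothelium and 1 each of T and NK cells, neutrophils and cholangiocytes, all higher, where 2.66% of all genes were higher and 3.34% lower. Double KO livers gave such a p for 3 cell cycle genes and 1 each of endothelium, cholangiocytes and B cells higher, and 3 of stellate cells and fibroblasts, 2 of hepatocytes and 1 of endothelium lower, where 5.34% of all genes were higher and 5.43% lower. In SMRT KO against control livers the members' mean level differed by 0.25 on the log2 scale and the cell cycle genes by 0.22. Sinusoidal endothelium differed by 0.12, T and NK cells by 0.10, neutrophils by 0.07 and hepatocytes by -0.02. The medians of these lists were 0.27, 0.16, 0.05, 0.09, 0.07 and -0.008 in the same order. The largest endothelial value was 0.77, for Lyve1, which did not pass (adjusted p = 0.505 by limma). Above 0 were 15 of 16 cell cycle genes, 10 of 14 endothelial, 10 of 11 T and NK cell, 8 of 10 neutrophil and 5 of 10 hepatocyte genes. The cell cycle mean was 6.57, 6.70 and 6.41 in SMRT KO livers and 6.37, 6.26 and 6.41 in control livers, and SMRT KO replicate 3, the highest for the members, was the lowest of its group there. The T and NK cell mean was 5.54 to 5.63 in SMRT KO livers and 5.43 to 5.57 in control livers. The group means of the T and NK cell, neutrophil and cholangiocyte lists lay below 5.96, the 95th percentile of the olfactory and vomeronasal receptor genes. Many of their genes were thus near the background of the arrays, which limits what their small differences show. In double KO against control livers the hepatocyte mean differed by -0.12, with 7 of 10 genes below 0, a median of -0.07 and the lowest value, -0.59, for Ass1, and the stellate cell and fibroblast mean also by -0.12. The hepatocyte mean was 11.98 to 12.01 in double KO livers and 12.10 to 12.14 in control livers, and relative to the median hepatocyte gene of each array the log2 fold change of Fcna was -0.84. In SMRT KO against control livers the median log2 fold change was -0.04 for 12 stellate cell and fibroblast genes, -0.01 for 6 cholangiocyte genes, 0.04 for 5 B cell genes, 0.09 for 6 dendritic cell genes and 0.11 for the 2 erythroid genes measured. In double KO against control livers the medians of these lists were -0.16, 0.04, 0.03, 0.09 and 0.09. Of the markers with the highest means, Nkg7 of cytotoxic cells had 0.16, Cd3g of T cells 0.22 and Cd3e of T cells 0.38 in SMRT KO against control, where Cd3g overlapped control and the other two did not, and the mitotic kinase gene Cdk1 had 0.47. Clec4g of sinusoidal endothelium had 0.18, Sox9 of cholangiocytes 0.25, Csf3r of neutrophils 0.21, Cd79b of B cells 0.14, Dcn of fibroblasts 0.05 and Pcna of dividing cells 0.00055. Tyms, a cell cycle gene of higher mean than Cdk1, averaged 7.47 in SMRT KO and 7.40 in control livers. Cd209a of dendritic cells averaged 8.43 in SMRT KO and 8.56 in control livers. The part of these other cells in the members' values was not tested.

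**Figure D4:**
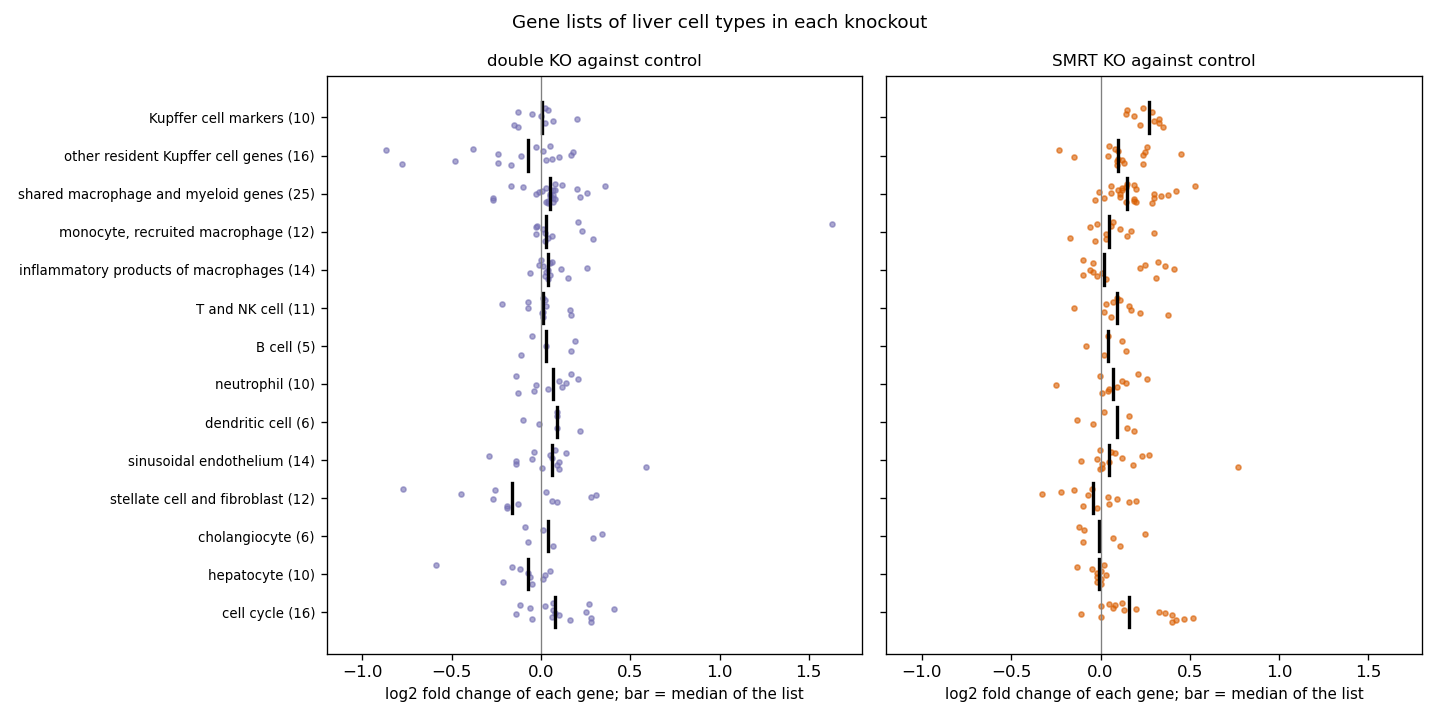
Log2 fold change of each gene (points, horizontal axis) and the median of each list (bar) for 14 lists of liver cell types, with the number of measured genes in brackets, in double KO (left) and SMRT KO livers (right) against control. The 10 Kupffer cell markers lie right of 0 in SMRT KO livers, with a median of 0.27, and around 0 in double KO livers. Among the other resident Kupffer cell genes, Fcna stands at -0.87 in double KO livers and passed, and Clec1b stands at -0.78 and did not. Fabp5, on the monocyte and recruited macrophage list, stands at 1.63 there and did not pass.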

How the data were processed

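Liver RNA of 9 mice was measured, 200 ng per liver, 1 array each. The deposited table holds log2 values of 41345 probe sets, made by the authors with RMA, as the submitters' processing notes say. RMA brings all arrays to 1 distribution, which hides a shift common to most genes. The sources used here give no RMA version. Groups came from the sample titles. Probe sets with exactly 1 symbol in the platform annotation were kept (23521), with the one of highest mean per gene, which left 22180 genes. The test was limma 3.58.1 under R 4.3.3 (eBayes, two-sided, no block) and it was fitted over all arrays, with Benjamini-Hochberg adjustment over genes within each of 3 contrasts and a threshold of 0.05. Every adjusted p is limma's. The steps were tested on simulated data. The number of mice limits precision. The smallest p of an exact permutation test of 3 mice against 3 is 0.1, and none was run.

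The members and lists were chosen with earlier results of these data known. The named genes were the members, the called genes of each list, otherwise the 3 of highest mean (1 to 3 of them for lists of other cell types), and the 8 genes most like the members. Lists in the text hold the genes of each list that were measured. Lists are described by counts and medians, without a set test. Alternatives were a median over probe sets, leaving out dim genes, cyclic loess, levels relative to hepatocyte genes, fits of 2 groups, limma with a trend, array weights, a replicate block and leaving out each mouse. The targeted corepressor genes were not analysed here.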

Additional observations from a re-analysis of the deposited data

How the results depend on the processing

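The count of called members was 0 in all 3 comparisons under all 17 alternatives, and the medians of the members moved by less than the spread between mice (SD 0.115 of the members' mean within groups). Several alternatives can change a member's p-value but not its fold change. These are the median over probe sets, dim genes left out, fits of 2 groups, the trend and the replicate block. The same holds for leaving out a mouse of the group outside the comparison. Leaving out single mice gave member medians of 0.18 to 0.34 in SMRT KO against control, -0.10 to 0.07 in double KO against control and -0.31 to -0.18 in double KO against SMRT KO livers, and 3 to 7 members above 0 in double KO against control livers. Members near 0 in double KO against control livers changed sign. Clec4f, at -0.00032, gave 0.00052 after cyclic loess, 0.03 relative to hepatocyte genes, 0.04 with array weights and -0.11 to 0.15 without single mice. Without single mice the range was -0.11 to 0.03 for Marco, -0.08 to 0.16 for Csf1r, -0.03 to 0.10 for Cd68 and -0.11 to 0.11 for C1qb. The count of called resident Kupffer cell genes was 1 to 2 without single mice in double KO against control and in double KO against SMRT KO livers, and 1 in double KO against SMRT KO livers with only the 2 groups in the fit, and 3 there, with Hpgd added, when dim genes were left out, with an intensity trend and with array weights. Over all genes, called genes without single mice numbered 0 to 23 in SMRT KO against control, 61 to 179 in double KO against control and 101 to 234 in double KO against SMRT KO livers. With only the 2 groups compared they numbered 0, 109 and 124 in these comparisons, with dim genes left out 2 in SMRT KO against control, and with array weights 285 in double KO against control livers.

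The labels do not say that the replicate numbers in the titles pair the mice. Deviations from the group means correlated at -0.0845 to 0.117 for same-numbered arrays and at -0.1543 to 0.1645 for differently numbered ones. With 3 mice per group these correlations cannot settle whether mice shared a litter, day or batch. With the number as a replicate block, 0 members were called, 1 resident Kupffer cell gene was called in double KO against SMRT KO livers (Fcna), and 2 genes were called over all in SMRT KO against control livers.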
